A study of Homo sapiens with 46 samples.

Results

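RNA bound to chromatin was compared between ectoderm and the pluripotent stem cells from which it was made. The human pluripotent stem cells (hPSC) were of the H1 line, an established embryonic stem cell line, kept in mTeSR1 medium on Matrigel. Ectoderm was made from the same line over 5 days in DMEM/F12 with 15% KOSR, non-essential amino acids, b-mercaptoethanol and 3 inhibitors at 2 µM each: A83-01, PNU-74654 and Dorsomorphin. A83-01 blocks the type I receptors of nodal, activin and TGF-beta, dorsomorphin blocks BMP type I receptors, and PNU-74654 interferes with the partnership of beta-catenin and TCF factors. The members were the 3 chromatin libraries of ectoderm and the 3 chromatin libraries of hPSC, chosen by their titles, 6 of the 46 libraries of a study of 4 cell types and several cell fractions. Both groups come from 1 cell line, every fractionation buffer held α-amanitin (an inhibitor of RNA polymerase II), and nothing in the labels says that libraries of a group came from separate cultures. P-values therefore measure the spread between libraries, which may be technical. A gene entered the comparison where both cell types' transcript tables held it, after summing its transcripts per Ensembl gene: 13580 genes were in both, and 13168 had enough counts to be tested.

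Chromatin-bound RNA holds transcripts still being made or spliced, together with long noncoding RNAs that stay at chromatin, so it sits closer to transcription than the RNA of the cytoplasm. Pluripotent cells are held by a network around POU5F1 (OCT4), NANOG and SOX2, with nodal and FGF signals keeping the state. When nodal and BMP signals are blocked, such cells commonly turn to neuroectoderm, the sheet that forms the brain and eye, marked by PAX6, SOX1, OTX2, RAX and SIX3. SOX2 is shared by both states.

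The libraries held 12790326 to 13508051 counts in ectoderm and 12830248 to 15798639 in hPSC. Among the 6, hPSC library 3 stood apart from its group: its Pearson r of log2 CPM across genes with libraries 1 and 2 was 0.957 and 0.960, against 0.992 between those 2 libraries, and genes are not independent replicates. Ectoderm library 2 carried 7.34% of its counts in transcripts without an Ensembl gene, against 1.06% and 1.33% in the other 2 ectoderm libraries. Levels are given as CPM, the counts of a gene scaled to a common total of a library's Ensembl-gene counts, and are compared between libraries of a gene, not between genes. The labelled fraction was not borne out by every marker. MALAT1, an RNA of nuclear speckles, averaged 139 CPM in hPSC chromatin, 876 CPM in hPSC nucleoplasm and 248 CPM in hPSC cytoplasm, and 753, 2083 and 1701 CPM in the same 3 ectoderm fractions. In hPSC the mitochondrial mRNA MT-ND1 averaged 1872 CPM on chromatin and 123 CPM in cytoplasm, and in ectoderm 818 and 293 CPM. GAPDH, a cytoplasmic control, was lower on chromatin than in cytoplasm in both cell types, at 2985 and 6527 CPM in hPSC and 1004 and 3406 CPM in ectoderm. Mitochondrially encoded RNA made 1.89% to 2.70% of ectoderm chromatin counts and 4.51% to 5.80% of hPSC chromatin counts; its part in the results below was not tested.

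Ectoderm and hPSC chromatin differed at most genes tested. By edgeR's quasi-likelihood F test with Benjamini-Hochberg adjustment, 9187 of the 13168 genes were called at an adjusted p under 0.05, which is 69.8%: 4647 (35.3%) were higher in ectoderm and 4540 (34.5%) were lower. Those 2 percentages are the background for the gene groups below. The median log2 change over all genes tested was 0.01, and the called genes had a median size of 1.26 with a median standard error (SE) of 0.17. A change of at least 2-fold was met by 5756 called genes (43.7%), and at 9839 genes (74.7%) the 2 groups of libraries did not overlap. Without hPSC library 3, 10555 genes were called. RNA per cell was not measured, so less RNA per cell and fewer cells that hold an RNA cannot be told apart.

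**Figure D1:**
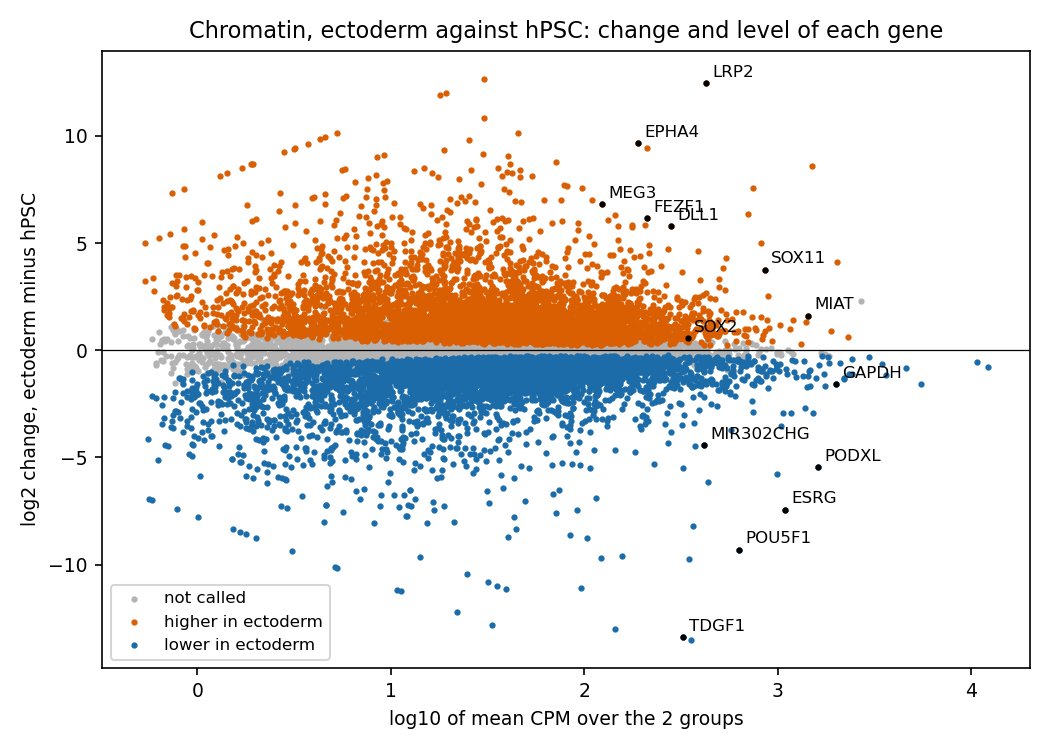
Log2 change, ectoderm over hPSC chromatin, against log10 of the mean CPM, for the 13168 genes tested, with called genes coloured by direction. Rises (4647) and falls (4540) are about equally many.

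Each cell type was counted on its own transcript assembly, so the gene models change together with the cell type. The length of a gene's model, worked out from the ratio of the deposited counts to the deposited TPM, was within 1.5-fold between the 2 assemblies for 10658 of the tested genes. Among these, 7190 were called (67.5%), 29.9% higher and 37.6% lower. Among 2313 genes whose model lengths differed more, 1800 were called (77.8%), 58.8% higher and only 19.1% lower. Model length thus moved with direction, and its part in any single rise was not tested; gene groups below are therefore also given for genes of similar length.

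**Figure D2:**
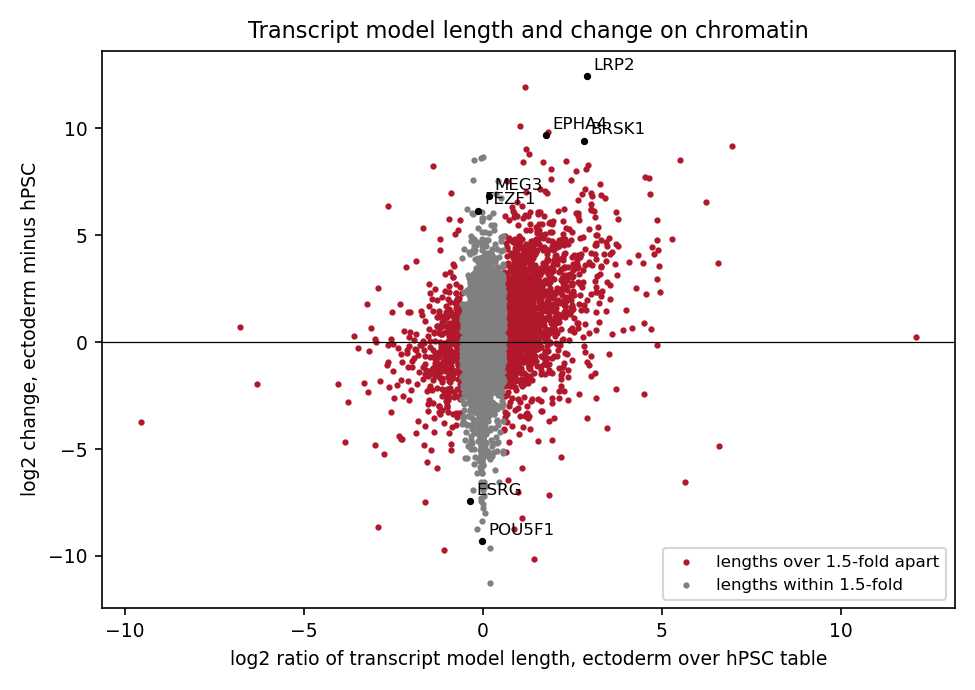
Log2 change, ectoderm over hPSC chromatin, against log2 of the ratio of transcript model lengths in the 2 assemblies, per gene, with genes more than 1.5-fold apart in red. Among the genes of differing length 58.8% were called higher and 19.1% lower.

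The pluripotency genes fell almost as a block. Of 30 listed genes 26 were in both tables and tested, and 23 fell, 1 rose and 2 did not pass the test, with a median log2 change of -3.26. Among the 22 of similar model length, 19 fell and 1 rose, with a median of -3.09. The count of 23 did not change when any single library was left out. TDGF1 (CRIPTO), the co-receptor through which nodal signals, was at 0.150, 0 and 0 CPM in ectoderm and 703, 684 and 548 CPM in hPSC. With 2 counts in all 3 ectoderm libraries, that is a ratio of 12510 (95% counting interval 3463 to 103300, counting error only). POU5F1 (ENSG00000204531), the central POU factor of the pluripotent state, stood at 2.40, 1.68 and 1.90 CPM in ectoderm and 1197, 1380.3 and 1207 CPM in hPSC (log2 change -9.30, SE 0.18, adjusted p = 3.54e-07). Its groups are far apart, its model lengths were 1246 and 1258 bases in ectoderm and hPSC, and transcripts with the same Ensembl ID gave -8.89. PRDM14, a repressor that guards the naive and germ cell state, changed by -7.01 on the log2 scale, with a model length that differed. FOXH1, the DNA-binding partner of SMAD2 and SMAD3, changed by -6.71 and the telomere protein gene TERF1 by -5.75. The sialomucin PODXL, which carries surface antigens used to sort hPSC, stood at 71.8, 65.9 and 78.7 CPM in ectoderm and 3211, 3006 and 3260.2 CPM in hPSC. DNMT3B, the de novo DNA methyltransferase that marks the primed state, stood at 372, 314 and 367 CPM in ectoderm and 2457, 2629 and 3005 CPM in hPSC (log2 change -2.94, SE 0.13). LIN28A, which blocks let-7 maturation, had the smallest of the called falls and stood at 1017, 934 and 1094 CPM in ectoderm and 1801, 1916 and 2064 CPM in hPSC (log2 change -0.92, SE 0.11). SOX2 alone rose in the main fit. It was at 393, 422 and 414 CPM in ectoderm and 302, 304 and 214 CPM in hPSC (log2 change 0.58, SE 0.16, adjusted p = 0.0116), and the lowest ectoderm library lies above the highest hPSC library. On transcripts with the same Ensembl ID 3 listed genes were called higher and 22 lower. SALL4 (0.06) and LIN28B (0.22) did not pass the test. NANOG, DPPA2 and GDF3 were in the hPSC table only, NANOG at 62.9, 62.2 and 53.0 CPM, and a gene that an assembly lacks has no count there, which is not a count of 0. In sum, the 29 listed genes held for hPSC made 16233 to 17752 CPM per library. The 26 held for ectoderm made 3149 to 3460 CPM per library, so the 2 sums cover unequal sets of genes.

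**Figure D3:**
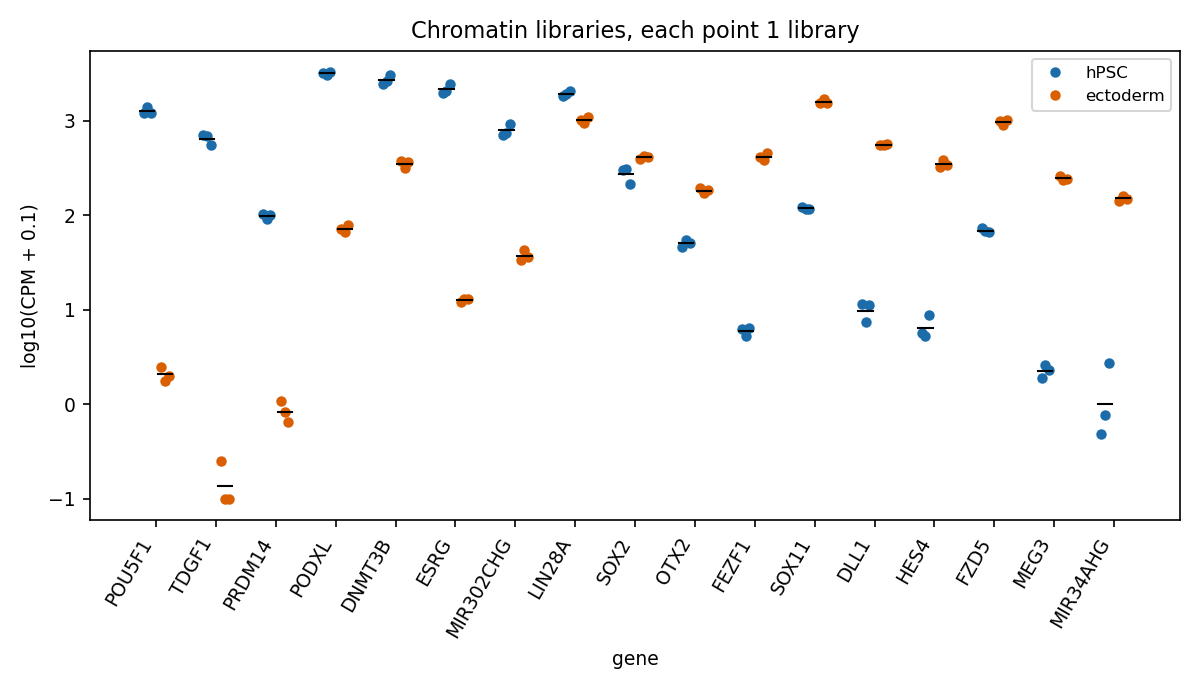
Level of 17 genes in each of the 6 chromatin libraries, as log10 of CPM plus 0.1, with 3 ectoderm and 3 hPSC points per gene and a bar at each group's mean of the log values. POU5F1, ESRG and MIR302CHG sit lower in the 3 ectoderm libraries, FEZF1, DLL1 and MEG3 sit higher, and the SOX2 groups lie close together.

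Noncoding RNAs of the pluripotent state showed the same low ectoderm levels. ESRG, a long noncoding RNA (lncRNA) driven by an endogenous retrovirus in hPSC, stood at 11.8, 12.9 and 12.8 CPM in ectoderm and 1976, 2044 and 2456 CPM in hPSC (log2 change -7.43, SE 0.15, adjusted p = 3.83e-07). LINC00678 changed by -5.32, and TUNAR by -2.82. LNCPRESS1, a p53-repressed lncRNA of hPSC, had 0.0749, 0 and 0 CPM in ectoderm and 56.6, 54.9 and 36.5 CPM in hPSC, a ratio of 1924 (95% counting interval 345 to 76042). RMST, a lncRNA known for its role in neurogenesis with SOX2, also fell (-7.14), with a model length that differed between the tables. Of 29 listed stem cell and neural lncRNAs only 7 could be tested, and 5 fell and 2 rose; the 2 were MIAT (1.61) and FIRRE (2.19). LINC-ROR, LINC00458, LINC01108, LINC01194 and LNCPRESS2 were in the hPSC table only.

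MIR302CHG, the host transcript of the miR-302/367 cluster of pluripotent cells, fell, and MIR34AHG, the host of miR-34a, rose. The mature miRNAs are shown because the 2 hosts carry different seeds (bases 2 to 8, in capitals), the part that pairs with target mRNAs; the libraries measured the hosts and not the mature miRNAs. Sequences are from RefSeq, GRCh38.p14, all on the minus strand, with the cluster at chr4:112647877-112648511 and miR-34a-5p at chr1:9151735-9151756, written 5′ to 3′.
hsa-miR-302a-3p: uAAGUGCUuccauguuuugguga
hsa-miR-302b-3p: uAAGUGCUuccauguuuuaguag
hsa-miR-302c-3p: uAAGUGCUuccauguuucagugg
hsa-miR-302d-3p: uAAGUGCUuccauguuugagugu
hsa-miR-367-3p: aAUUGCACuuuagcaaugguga
hsa-miR-34a-5p: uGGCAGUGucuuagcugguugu
The 4 miR-302 members share the seed AAGUGCU, while miR-367-3p has AUUGCAC and miR-34a-5p has GGCAGUG.

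MIR302CHG stood at 33.2, 42.7 and 35.7 CPM in ectoderm and 705, 747 and 924 CPM in hPSC (log2 change -4.41, SE 0.17, adjusted p = 1.56e-06), and the groups do not overlap. The RefSeq window from 250 bases before to 50 bases after its start, chr4:112650002-112650301 on the minus strand (GRCh38.p14), is shown with 1 match to the octamer of POU factors, ATGCAAAT, in capitals.
window: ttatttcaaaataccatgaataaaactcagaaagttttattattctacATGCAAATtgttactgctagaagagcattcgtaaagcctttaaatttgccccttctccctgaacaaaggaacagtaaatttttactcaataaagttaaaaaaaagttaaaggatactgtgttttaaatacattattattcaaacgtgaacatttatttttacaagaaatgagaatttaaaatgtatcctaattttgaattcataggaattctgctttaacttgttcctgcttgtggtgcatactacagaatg
The octamer was searched on both strands. It is in 623 of all 35116 windows (1.77%), in 186 of the 10047 windows of tested genes (1.85%) and in 15 of the 704 windows of genes called at least 4-fold lower (2.13%). A second RefSeq start of the same gene has a window with 0 matches. A match is a string of letters and not evidence of binding. MIR34AHG was at 142, 159.8 and 148 CPM in ectoderm and 0.384, 0.662 and 2.61 CPM in hPSC (log2 change 7.00, SE 0.52), with a model length that differed between the tables; p53 is known to activate this host, and the p53 target CDKN1A is given with the cell cycle genes. MIR124-1HG, host of the neuronal miR-124, fell (-5.27) and MIR210HG, host of a hypoxia-induced miRNA, fell (-1.80). Of 30 listed hosts 7 were tested, 3 fell and 2 rose; both rising hosts, MIR34AHG and MIR205HG, had differing model lengths, and 0 hosts were called higher on transcripts shared by the tables. MIR17HG was in the hPSC table only.

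The transcription factors of neuroectoderm were higher in ectoderm, and many of the best known ones were in its table only. Of 52 listed factors 21 were in both tables and tested: 15 rose and 5 fell, with a median of 1.84, and among 17 of similar model length 12 rose and 4 fell; without ectoderm library 3, 3 of the 21 fell. A further 19 were in the ectoderm table only, none in the hPSC table only, and 12 in neither, SOX1 among them. FEZF1 (ENSG00000128610), a repressor that sets forebrain identity, stood at 416, 388 and 449 CPM in ectoderm and 6.15, 5.15 and 6.32 CPM in hPSC (log2 change 6.15, SE 0.14, adjusted p = 4.41e-07). HES4, a repressor of the HES family, stood at 323, 379.8 and 342 CPM in ectoderm and 5.51, 5.22 and 8.77 CPM in hPSC, with a model length that differed. SOX11, a neural SoxC factor, stood at 1519.6, 1708 and 1541 CPM in ectoderm and 122, 116 and 115 CPM in hPSC (log2 change 3.76, SE 0.12, adjusted p = 9.41e-07). At each of these 3 genes the ectoderm libraries all lie above the hPSC libraries by more than the spread within either group. OTX2, which specifies the anterior brain and is already present in primed hPSC, stood at 192, 169.5 and 185 CPM in ectoderm and 45.9, 55.1 and 51.3 CPM in hPSC (log2 change 1.84, SE 0.11). OTX1 rose by 3.78, SOX21 by 3.66, MEIS3 by 3.43, POU3F1 by 1.91 and SOX9 by 1.43. Among those that fell were ZIC5 (-1.51), HESX1 (-1.0), TCF7L1 (-0.55) and ZIC2 (-0.37), of which ZIC2 and TCF7L1 are also known to act in pluripotent cells. On the authors' TPM, 2 of these factors were called lower and 16 higher. RAX, the eye field factor, was in the ectoderm table only at 344, 348 and 364 CPM. PAX6, the marker of neural commitment, was there at 177, 192 and 182 CPM. SIX3, a forebrain and eye factor, was there at 149, 140.5 and 166 CPM and LHX2, a factor of the eye and cortex, at 109, 94.8 and 108 CPM. The 40 listed factors held for ectoderm together made 5375 to 5589 CPM per library, and the 21 held for hPSC made 1160 to 1220 CPM. These sums cover unequal sets of genes, so part of their gap comes from which genes each assembly held.

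**Figure D4:**
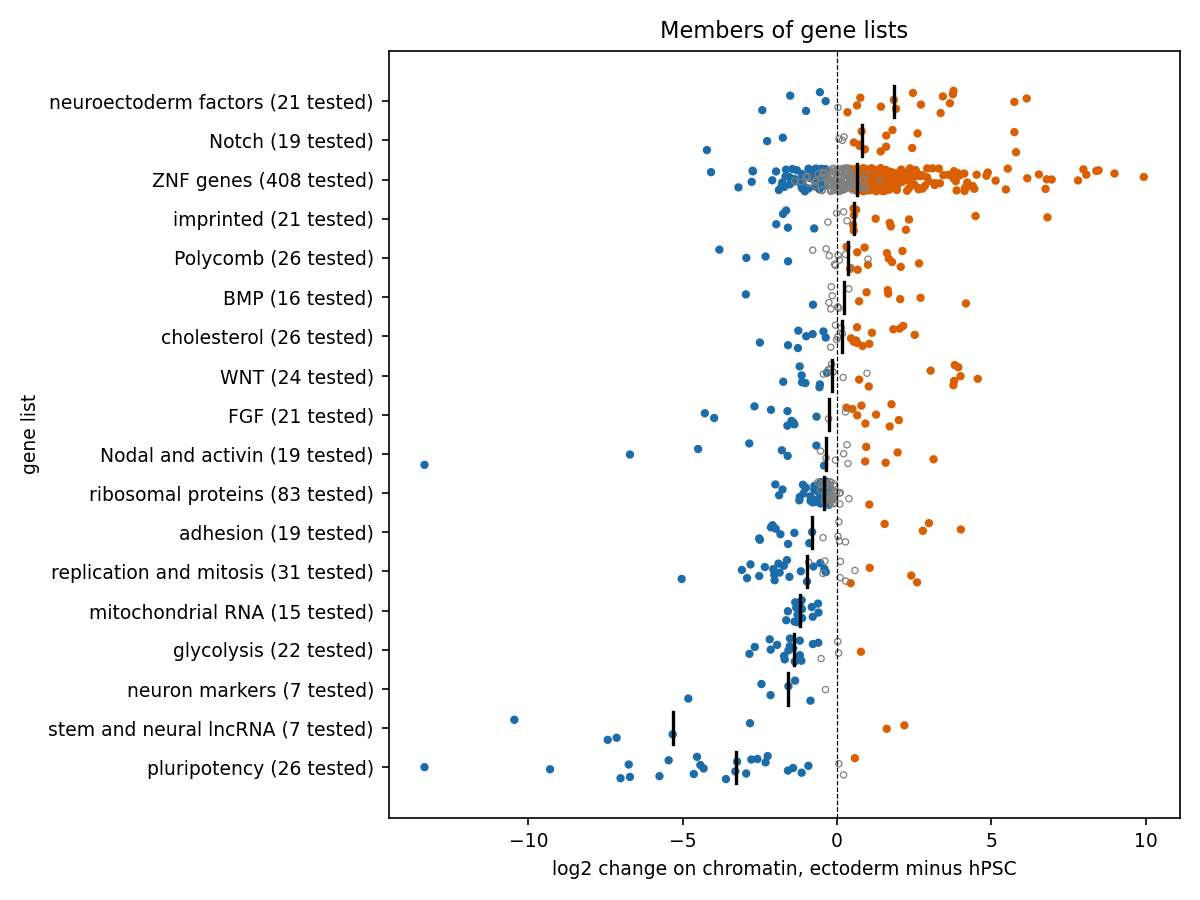
Log2 change, ectoderm over hPSC chromatin, of the tested members of 18 gene lists, 1 point per gene, with a bar at each list's median and a dashed line at the median of all genes tested (0.01). Pluripotency genes lie mostly below the line (median -3.26) and neuroectoderm factors mostly above it (median 1.84).

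Genes of the neural progenitor cell body were mixed, and neuron genes were lower. Among 25 tested progenitor genes 10 rose and 7 fell, with a median of -0.02, not far from the shares of all genes tested (35.3% and 34.5%). Without hPSC library 3, 10 fell. CDH2 (N-cadherin), the adhesion molecule of the neural tube, stood at 118, 92.3 and 113 CPM in ectoderm and 43.3, 37.2 and 29.9 CPM in hPSC (log2 change 1.55, SE 0.17). FABP7, a radial glia lipid carrier, changed by 2.71, MSI1, an RNA-binding protein of neural stem cells, by 2.21, and GPM6B, a membrane proteolipid, by -2.86. VIM (-0.19) and NES (0.29), the intermediate filaments used as progenitor markers, did not pass the test. All 6 neuron genes called, of 7 tested, were lower, with a median over the 7 of -1.57. TUBB3, the neuronal tubulin, stood at 19.2, 17.6 and 21.7 CPM in ectoderm and 104, 107 and 108 CPM in hPSC (log2 change -2.45, SE 0.12), and SYP, a synaptic vesicle protein, changed by -4.82. NEUROG2, a proneural factor that starts neuron formation, was in the ectoderm table only at 91.9, 93.7 and 101 CPM, while NEUROD1, ELAVL3 and ELAVL4 were in neither table. DCX, SNAP25 and STMN2 were in both tables but too low to be tested. Markers of other lineages were mostly not in the tables. SOX17, FOXA2, GATA4, GATA6 and EOMES, which define endoderm or mesendoderm, and TBXT, MESP1 and HAND1 of mesoderm were in neither table, and 17 of 19 endoderm and 10 of 20 mesoderm markers were not there at all. The endoderm list summed to 20.2 to 27.2 CPM per ectoderm library and 26.9 to 34.7 CPM per hPSC library, over 2 genes in each. The mesoderm list summed to 73.7 to 81.7 CPM over 8 genes in ectoderm and 209.6 to 238 CPM over 7 genes in hPSC, which are not the same set. Of the 5 mesoderm markers that could be tested 4 rose and 1 fell, with a median of 0.88, and 3 more were in the ectoderm table only; without hPSC library 2, 2 rose. The 4 were TBX6 (1.56), PDGFRA (0.88), SNAI1 (0.63) and HAPLN1 (5.52), the last with a model length that differed, and KDR, the VEGF receptor of mesoderm that hPSC also express, fell (-5.51). Of 24 markers of crest, placode and epidermis 10 were in the ectoderm table only. Of 7 tested, 5 rose, among them MSX2 (2.05) and TFAP2C (1.07), and KRT7 (-2.16) and KRT18 (-0.51) fell. Against endoderm and against mesoderm chromatin, the 5 members of this list that could be tested were all lower in ectoderm.

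The pathway genes were ordered by the signals that the medium blocked, starting with nodal. Of 31 nodal and activin genes 19 were tested, 8 fell and 5 rose, with a median of -0.35, and 7 were in the hPSC table only. The ligand NODAL (1.79, 1.98 and 3.0 CPM) and its inhibitors LEFTY1 and LEFTY2 were among those 7, all low in these libraries. Besides TDGF1 and FOXH1, the targets SKIL (-2.84) and SMAD7 (-1.6), which are induced by SMAD signalling in many cells, fell. The receptors TGFBR1 (0.33), TGFBR2 (0.22) and ACVR2B (-0.05) did not pass the test, and the signal carriers SMAD2 (1.97) and SMAD3 (0.92) rose. Among BMP genes 7 of 16 tested rose and 2 fell, with a median of 0.22; without hPSC library 3, 4 fell. BMP4, the ligand, stood at 33.6, 31.2 and 36.8 CPM in ectoderm and 2.11, 1.54 and 1.90 CPM in hPSC (log2 change 4.18, SE 0.18, adjusted p = 2.12e-06), with no overlap. The antagonists CHRD and NOG and the ligand BMP2 were in the ectoderm table only. Among the target genes, BAMBI, a decoy receptor, stood at 2.70, 2.08 and 3.09 CPM in ectoderm and 20.2, 17.9 and 22.8 CPM in hPSC (log2 change -2.95, SE 0.19). ID3 changed by -0.78 and ID4 by 1.65, while ID1 (-0.18) and ID2 (-0.15) did not pass the test.

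Several WNT receptors rose, while other WNT genes moved either way. Of 24 WNT genes tested 9 rose and 8 fell, with a median of -0.15. These counts are near the shares of all genes tested (35.3% higher and 34.5% lower). On the authors' TPM 5 fell. FZD5, a receptor of the eye field, stood at 989, 893 and 1023 CPM in ectoderm and 72.3, 67.6 and 65.7 CPM in hPSC (log2 change 3.82, SE 0.11, adjusted p = 8.23e-07), with the groups well apart. FZD1 (4.01), FZD2 (3.77) and FZD3 (3.04) also rose, as did WLS (4.56), which escorts WNT proteins to the surface, and the secreted antagonist FRZB (3.93). The antagonists SFRP1 (-1.21) and SFRP2 (-1.14) fell, with the receptor FZD7 (-1.02). AXIN2, the common readout of beta-catenin activity, fell (-0.56), and the receptor-clearing ligase RNF43 rose (3.80) while its relative ZNRF3 fell (-1.13).

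The Notch pathway rose in most of its tested genes: 13 of 19 rose and 3 fell, with a median of 0.80, and among 16 of similar model length 10 rose and 3 fell. DLL1, the ligand shown by newly forming neurons, stood at 548, 549 and 564 CPM in ectoderm and 11.4, 7.28 and 11.0 CPM in hPSC (log2 change 5.80, SE 0.20, adjusted p = 1.19e-06), with no overlap between the groups. JAG1, another ligand, changed by 1.6, the receptor NOTCH2 by 1.42, the glycosyltransferases MFNG and LFNG, which tune receptors to ligands, by 2.61 and 1.80, and the target HES1 by 1.59. The 3 fallers were the target HEY2 (-4.21), HES6 (-2.26), which opposes HES1, and the divergent ligand DLL3 (-1.75). FGF genes were divided, with 9 of 21 tested rising and 10 falling. FGF2, added to most hPSC media and made by the cells, changed by -1.42, FGF19 by -4.28, the receptor FGFR2 by -1.6, and the targets SPRY4 and ETV4 by -3.98 and -2.67. The inhibitors IL17RD (2.01) and DUSP4 (1.71) and the forebrain ligand FGF17 (1.77) rose, and FGF8 was in the ectoderm table only. Retinoid and hedgehog genes rose in 7 and fell in 6 of 17 tested, not far from the 35.3% and 34.5% of all genes tested. CYP26A1, which degrades retinoic acid, changed by -5.60 and the hedgehog target GLI1 by -4.51; the hedgehog co-receptors GAS1 (3.95), BOC (2.70) and CDON (2.34) and the repressor-forming GLI3 (2.46) rose.

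Genes of cell adhesion, epithelial and neural cadherins, claudins and protocadherins among them, fell in 10 of 19 tested, with 4 rising and a median of -0.80. CDH1 (E-cadherin) stood at 202, 168 and 236 CPM in ectoderm and 649.9, 583 and 577 CPM in hPSC (log2 change -1.58, SE 0.14, adjusted p = 4.35e-05), and every hPSC library lies above every ectoderm library. EPCAM (-1.83), CLDN6 (-2.50) and CLDN7 (-2.08), all epithelial surface or junction proteins, fell with it. CDH2, CDH11 (4.02), PCDH18 (2.98) and CLDN4 (2.78) were the 4 that rose, CDH11 with a model length that differed.

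Glycolysis genes were lower almost throughout: 18 of 22 tested fell and 1 rose (2 without hPSC library 3), with a median of -1.39, and 18 fell whichever single library was left out. Among these, HK2, which traps glucose in the cell, changed by -2.83, LDHA, which makes lactate, by -2.18, ENO1 by -1.71 and PKM by -1.20, while the muscle form PFKM rose (0.78). Genes of DNA replication and mitosis fell in 20 of 31 tested and rose in 4, with a median of -0.97. The larger falls were of replication genes: MCM5, a subunit of the replicative helicase, changed by -2.91, the sliding clamp PCNA by -2.52, the loader CDC6 by -2.80 and the S phase cyclin gene CCNE1 by -3.08. Among mitotic genes PLK1 (0.11), BUB1 (0.10), CCNB2 (0.29) and TOP2A (0.58) did not pass the test and AURKA rose (0.45). CDKN1A (p21), which halts the cycle, stood at 690.1, 603 and 821 CPM in ectoderm and 105, 101 and 143 CPM in hPSC (log2 change 2.60, SE 0.18, adjusted p = 1.19e-05), CDKN1B changed by 1.06 and CCND2, a D cyclin of progenitors, by 2.41. Cholesterol genes rose in 12 and fell in 8 of 26 tested, with HMGCS1 (2.15), an early enzyme of the pathway, and INSIG1 (1.83), which holds it back, rising and ACAT2 (-1.26) falling. All 15 mitochondrially encoded genes tested were lower, from -1.64 for MT-CYB to -0.60 for MT-ND6, as the share of mitochondrial counts above gives. Fewer were called lower on the authors' TPM (11) and on transcripts with the same Ensembl ID (8), and 0 were called higher in either. Of 83 ribosomal protein genes 47 fell and 1 rose, with a median of -0.43. That count depends on the libraries, the scale and the gene models: 68 fell without hPSC library 3, 20 fell and 6 rose on the authors' TPM, and 16 fell and 14 rose on transcripts with the same Ensembl ID in both tables. Among 9 cytoplasmic control genes 7 fell, so lower levels on chromatin were shared by abundant cytoplasmic RNAs; their part in the falls above was not tested.

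Genes that act on chromatin themselves moved in both directions. Of 17 DNA methylation genes 7 rose and 6 fell, with a median of 0.10, while 35.3% and 34.5% of all genes tested did so. DNMT3B, DNMT3A (-1.41), which also adds new methylation, and UHRF1 (-2.19), which recruits DNMT1 to copied DNA, fell. Among the 12 methylation genes with similar model length 4 rose and 5 fell, and TET2, which oxidises methylcytosine, was higher by 4.73 with a model length that differed. Polycomb genes rose in 12 of 26 tested and fell in 4, with a median of 0.37; 7 fell without hPSC library 3. The fallers were PHC1 (-2.93), CBX7 (-3.81), JARID2 (-2.31) and PHF19 (-1.58), of which the first 3 are known as highly expressed subunits or partners in pluripotent cells. MTF2 (2.12), PCGF5 (2.66) and EZH1 (1.79), the methyltransferase of nondividing cells, rose. MEG3, a maternally expressed imprinted lncRNA at the DLK1 locus that is reported to bind Polycomb, stood at 258, 236 and 241 CPM in ectoderm and 1.79, 2.50 and 2.21 CPM in hPSC (log2 change 6.82, SE 0.15, adjusted p = 4.41e-07), and every ectoderm library lies above every hPSC library. DLK1, its paternally expressed neighbour, was in the ectoderm table only at 2755, 2147 and 2885 CPM. Of 21 imprinted genes tested 12 rose and 5 fell, NNAT (2.24), IGF2 (2.34) and MEST (1.75) among the former and SNRPN (-1.59) and GRB10 (-1.65) among the latter. In the list of nuclear lncRNAs 6 of 13 rose and 4 fell. The falls depend on the setting: 1 fell by at least 2-fold, and on transcripts with the same Ensembl ID 4 rose and 0 fell. MALAT1 was at 727, 949 and 584 CPM in ectoderm and 169, 150.3 and 96.2 CPM in hPSC (log2 change 2.44, SE 0.27), NEAT1, the scaffold of paraspeckles, changed by 3.96, and SNHG14, the long transcript opposite UBE3A, by -2.70. Zinc finger genes with a ZNF symbol, many of which repress transposable elements through KAP1, rose in 219 and fell in 62 of 408 tested, with a median of 0.65. Among the 312 of similar length 147 rose and 55 fell, with a median of 0.49, and on transcripts with the same Ensembl ID 117 rose and 49 fell. Replication histone genes, whose mRNAs lack a poly(A) tail, rose in 7 and fell in 2 of 14 tested. On the authors' TPM 6 rose and 4 fell. Without ectoderm library 1 or 3, 1 fell, and 0 fell on shared transcripts. Members of these families are near copies whose reads may be split.

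By size alone, the largest rises seldom rested on transcripts that both tables held. Of the 12 largest rises 1 had a transcript shared by both tables; by model length 5 differed, 0 were similar and 7 could not be judged, since a length needs 30 counts. Among the 12 largest falls 7 had a shared transcript, and 4 were similar in length, 3 differed and 5 could not be judged. LRP2 (megalin), an endocytic receptor of the neuroepithelium, stood at 882, 845 and 828 CPM in ectoderm and 0.128, 0.147 and 0.158 CPM in hPSC (log2 change 12.45, SE 0.16), on models of 9514 and 1270.0 bases in ectoderm and hPSC. EPHA4, an ephrin receptor of the developing brain, stood at 387, 354 and 399 CPM in ectoderm and 0.449, 0.294 and 0.632 CPM in hPSC (log2 change 9.68, SE 0.20), on models of 6676 and 1974 bases. ZBTB16 (PLZF), a factor of neural progenitors, had a ratio of 784 (95% counting interval 217 to 6477), and it was the 1 rise with a shared transcript. Counting ratios were 2535 for FSD1L (interval 455 to 100180), 1261 for the lncRNA KC6 (interval 431 to 6119), 1064 for the SUMO protease SENP7 (interval 294 to 8794) and 710.2 for ZNF702P (interval 127 to 28096). BRSK1 (9.43), a kinase of neuronal polarity, and LINC01876 (9.04) were the other rises with a fitted change. Where all hPSC libraries were at 0, folds are bounds against 3 counts per library: CROCCP3 was at least 279-fold higher, ZFP14 at least 178-fold and GMDS-DT at least 48.6-fold. The largest falls, beside TDGF1, POU5F1 and LNCPRESS1, included CXCL12, a chemokine, at 0.225, 0.0799 and 0.238 CPM in ectoderm and 77.5, 76.3 and 88.6 CPM in hPSC (log2 change -8.72, SE 0.24), and TNFRSF8 (CD30), known from embryonal carcinoma, at 0.150, 0.399 and 0.238 CPM in ectoderm and 83.0, 79.8 and 102 CPM in hPSC (log2 change -8.36, SE 0.27). FOXD3-AS1 had a ratio of 2435 (interval 437 to 96196) and CUZD1 of 1124 (interval 201 to 44448), both lower in ectoderm. HDAC2-AS2 (-9.73) and the pseudogene PHC1P1 (-8.63) fell; PHC1P1 may share reads with PHC1, and strand in counting was not given in the sources used here, so antisense genes and their partners cannot be told apart. RUNX1T1 was at least 43.9-fold lower and SERF1A at least 96.2-fold lower, the latter uncertain because SERF1B is a near-identical copy. GUSBP17, at least 45.0-fold lower on the ectoderm assembly, changed direction to 2.63 with the ectoderm counts of the combined assembly, and it belongs to a multicopy pseudogene family. A second set of 12 in each direction, limited to similar model lengths and chosen after values were seen, began among the rises with MORC3 (6.93), MEG3, RP2 (6.74), MIER1 (6.23) and FEZF1, and held DLL1, AKAP9 (5.81), MBNL2 (5.65) and TINCR (6.03). Its falls were headed by SERF1A and POU5F1 and held CXCL5 (-8.00), CNMD (-7.75), RARRES2 (-7.59), GAL (-7.20) and APOBEC3B (-7.30).

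Genes of 1 table only cannot be compared and are listed apart. Of 17713 Ensembl genes listed for ectoderm, 4133 (23.3%) were not in the hPSC table, and 842 of these averaged 10 CPM or more. Of 15115 listed for hPSC, 1535 (10.2%) were not in the ectoderm table, with 179 at 10 CPM or more. They held 4.51% to 5.54% of ectoderm and 1.49% to 1.58% of hPSC chromatin counts. The highest with a symbol in ectoderm were the 5.8S ribosomal RNA at 868, 8346 and 1259.6 CPM, high in library 2, then DLK1, PRTG, a neural tube receptor, at 694, 653 and 614 CPM, IGFBP5 at 399, 345 and 463 CPM and GREB1L at 412, 374 and 415 CPM. In hPSC they were the mitochondrial tRNA gene MT-TP at 843, 629 and 685 CPM, PDZD4 at 353, 363 and 530.0 CPM, MIR5047 at 293, 294 and 485 CPM, LINC01013 at 389.7, 322 and 298 CPM and GUCY2C-AS1 at 252, 266 and 294 CPM. Widely expressed genes such as TAOK1 and LRP6 were also in the ectoderm table only, so a gene missing from an assembly cannot be read as missing from the cells.

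The change on chromatin was then set against the change in cytoplasm, to ask whether chromatin-bound RNA moved differently from cytoplasmic RNA. The fit took its 12 libraries as independent, and pairing between the fractions was not checked. The difference of the 2 log2 changes was called at 3061 of 13322 genes (23.0%), 1422 (10.7%) with a more positive change on chromatin and 1639 (12.3%) with a more negative one. That split was not stable to leaving out 1 library. Without hPSC chromatin library 3, 4525 genes were called, 2370 more positive and 2155 more negative, and more positive changes were also in the majority without hPSC cytoplasm library 3 (1660 and 1300) and without ectoderm cytoplasm library 1 (1345 and 1151), 2 (1424 and 1204) or 3 (1380 and 1147). More positive changes fell in number to 880, 897 and 928 without ectoderm chromatin libraries 1, 2 and 3, and to 940 without hPSC chromatin library 2. For the genes above the difference mostly did not pass the test: POU5F1 (-0.37), ESRG (0.06), MIR302CHG (-0.18), FEZF1 (0.12), DLL1 (-0.37) and MEG3 (0.61). SOX11 (0.86) and CDKN1A (1.21) had more positive changes on chromatin than in cytoplasm. CDH1 changed by -1.68 on chromatin and -0.14 in cytoplasm (difference -1.54, SE 0.21, adjusted p = 2.52e-04). CDH2 changed by 1.45 on chromatin and 3.14 in cytoplasm (difference -1.69). Both cadherins thus had a more negative change on chromatin than in cytoplasm. So did 14 of 19 adhesion genes, 14 of 25 progenitor genes and all 15 mitochondrially encoded genes tested. In these 3 lists 0 genes had a more positive one. The lean was not particular to them: 11 of 22 glycolysis genes and 6 of 9 cytoplasmic controls were more negative, and 0 more positive. ZNF genes leaned the other way, with 57 of 408 more positive and 20 more negative. Mitochondrial RNA, which is not bound to chromatin, had a median difference of -2.45, so the fractions differed between the cell types in more than chromatin-bound RNA; its part in the other differences was not tested.

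Single genes went furthest in either direction. PRR11, a mitosis-associated gene, was at 85.8, 72.8 and 91.5 CPM in ectoderm and 467, 373 and 424 CPM in hPSC on chromatin, and at 117, 99.0 and 109 CPM in ectoderm and 13.1, 26.2 and 30.4 CPM in hPSC in cytoplasm. Its change was -2.43 on chromatin and 2.14 in cytoplasm (difference -4.57, SE 0.29), with lower ectoderm levels in one fraction and higher ones in the other. TCAF1, a partner of TRP channels, was at 129, 121 and 117 CPM in ectoderm and 234, 201 and 107 CPM in hPSC on chromatin and at 189, 160.4 and 169 CPM in ectoderm and 8.84, 13.1 and 13.0 CPM in hPSC in cytoplasm (difference -4.46). FNTB, a farnesyltransferase subunit, was at 30.8, 27.7 and 27.3 CPM in ectoderm and 30.5, 27.6 and 31.0 CPM in hPSC on chromatin, where its change did not pass the test, and at 2.32, 6.26 and 0.925 CPM in ectoderm and 29.3, 28.8 and 32.5 CPM in hPSC in cytoplasm (difference 3.19). For TMSB15B (ENSG00000158427), a thymosin, levels were 29.2, 34.8 and 39.9 CPM in ectoderm and 0.769, 1.25 and 0.869 CPM in hPSC on chromatin, and 9.91, 10.5 and 15.3 CPM in ectoderm and 7.88, 3.83 and 2.81 CPM in hPSC in cytoplasm (difference 3.82). Reads may be shared with its near copies, and on shared transcripts the difference was -4.46 and did not pass the test. The other 6 of the 10 largest differences are given with the results set out for a closer look, since they held libraries near 0 counts or belong to a multigene family.

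**Figure D5:**
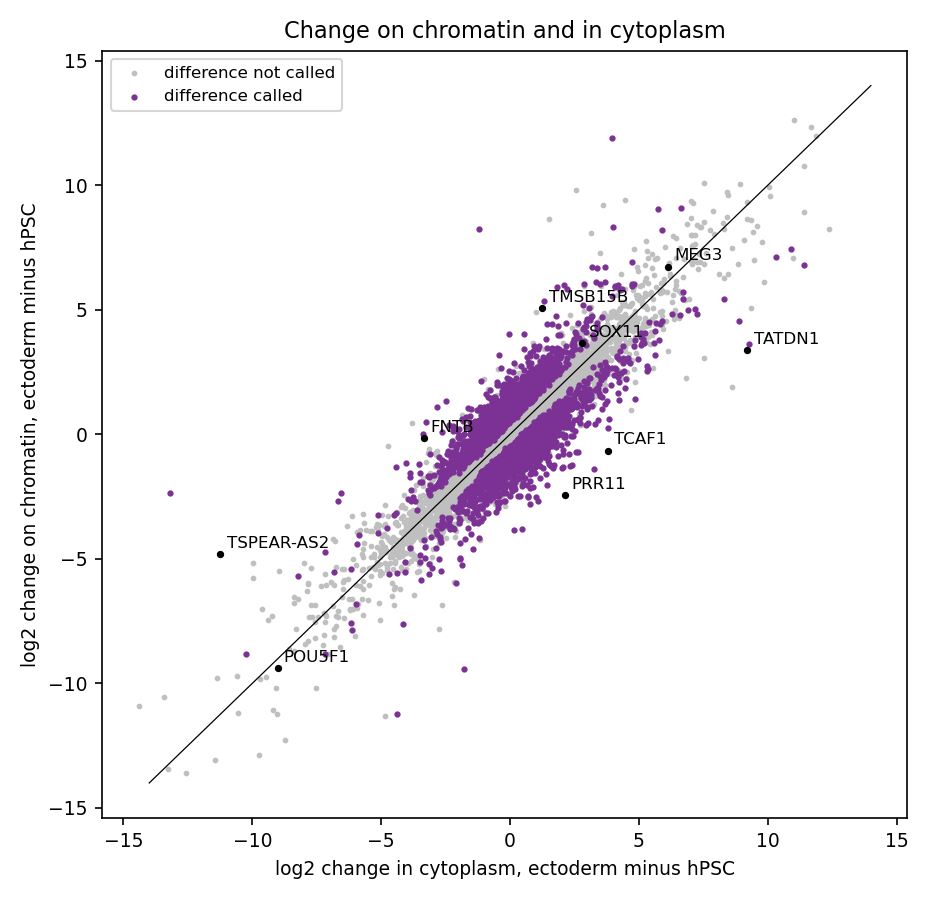
Log2 change, ectoderm over hPSC, on chromatin (y axis) against cytoplasm (x axis) for each of the 13322 genes. The 3061 genes whose changes differ by the test are in purple, with a line of equality. PRR11 has a change below 0 on chromatin and above 0 in cytoplasm.

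Ectoderm chromatin was last compared with endoderm and mesoderm chromatin of the same line, 3 libraries each, for genes in all 4 tables. These comparisons share the ectoderm libraries with the one above. The mesoderm chromatin libraries held 4990408 to 8767736 counts, fewer than those of ectoderm. Mesoderm library 3 carried 5.53% mitochondrial counts, against 1.12% and 0.77% in mesoderm libraries 1 and 2. Against endoderm 6329 of 10669 genes were called (59.3%), 3255 higher (30.5%) and 3074 lower (28.8%); of the called genes 51.4% were higher, a share of 63.8% without TMM factors and 70.2% on the authors' TPM. Against mesoderm 5225 were called (49.0%), 2498 higher (23.4%) and 2727 lower (25.6%); 47.8% of the called genes were higher, a share of 55.0% without TMM factors (2897 higher and 2366 lower) and 40.6% on the authors' TPM. All 9 neuroectoderm factors that could be tested were higher than in endoderm, and 8 of 9 were higher and 1 lower than in mesoderm. The 5 tested markers of crest, placode and epidermis were all lower than in endoderm (median -1.15) and in mesoderm (median -2.37). OTX2 differed by 3.59 from endoderm and 2.38 from mesoderm, and FZD5 by 5.68 and 4.08. MEG3 averaged 245 CPM in ectoderm, 2.44 CPM in endoderm and 0.339 CPM in mesoderm chromatin, a difference of 6.46 and 9.18. POU5F1 was lower in ectoderm than in either of them, by -7.25 and -7.05, and ESRG by -3.68 and -3.27. MIR302CHG averaged 2026 CPM in endoderm chromatin and was not in the mesoderm table. LIN28A, lower than in hPSC, was higher than in endoderm (1.03) and mesoderm (0.90). BMP4, higher than in hPSC, was lower than in endoderm (-1.86) and mesoderm (-2.23); the same held for CDH2 (-2.03 and -0.86). FN1 (fibronectin), a matrix protein, was lower than in endoderm, at 100.4, 75.3 and 102 CPM in ectoderm and 32350.0, 38959 and 28014 CPM in endoderm (log2 change -8.63, SE 0.38). RAB17 (-8.85) and MYORG (-8.37) were lower than in endoderm, and CALCR, at 0 in ectoderm, was at least 57.1-fold lower. The rises over endoderm were U2AF1, at least 489-fold, ANGEL1, at least 138-fold, RAD52, with a ratio of 3456 (interval 619.9 to 136520), LINC00910, with 2425 (interval 435 to 95813), and DOT1L (10.43); U2AF1 has a near-identical copy and was not called on shared transcripts. Over mesoderm, MEG3 was followed by SORCS1, with a ratio of 213 (interval 58.9 to 1764), HSPA12A, with 142 (interval 48.5 to 692), ELOA-AS1 (7.08) and PREX2 (6.90). Lower than in mesoderm were RUNX1T1, by at least 127-fold, RASGRF2 (-8.72), BCL11A, with a ratio of 369 (interval 101 to 3059), and CHN2 (-8.07). GUSBP17 was at least 89.9-fold lower than in endoderm and at least 492-fold lower than in mesoderm, under the limit given above for this gene.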

How the data were processed

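RNA from chromatin of 3 ectoderm and 3 hPSC libraries was compared, with cytoplasm libraries of both and endoderm and mesoderm chromatin for contrast. The authors deposited, per cell type, whole-number counts per assembled transcript and the authors' TPM (length-corrected shares) of the same transcripts; the submitters' processing notes name STAR, RSEM and hg38 without role or version, so counts may be rounded estimates. Per the labels, an NEBNext Ultra kit and a NovaSeq instrument were used; 2 columns of the ectoderm tables that match no sample were not used.

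Transcripts were summed per Ensembl gene without version, and genes in both tables were compared in edgeR 4.0.16 under R 4.3.3. Libraries were scaled by TMM, genes under the filterByExpr limit (minimum count 10) were dropped, and two-sided p-values of the quasi-likelihood F test were adjusted over the genes left by the Benjamini-Hochberg method. Transcripts without an Ensembl gene made 1.06% to 7.34% of counts and were left out. SE is the change divided by the root of F. Alternatives used DESeq2 1.42.0, limma 3.58.1 on log2(TPM + 1), other scalings, filters, assemblies and left-out libraries. The steps were tested on simulated data in which far fewer genes changed than were called here. Such data cannot show the error rate where most genes change. Model lengths came from counts over TPM, scaled on GENCODE 29 transcripts, for genes with at least 30 counts; 84.6% to 86.2% of transcripts fell within 1.5-fold of their GENCODE length.

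Named genes are the 12 largest called rises and falls (5 each in the other comparisons) with a symbol, at least 10 CPM and no overlap (not required for the difference between fractions), and members of 28 gene lists. Members and lists were chosen with earlier results of these data known, and some list members are not reported here. Floors are 3 counts; intervals are exact at 95%, and both cover counting error only.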

Additional observations from a re-analysis of the deposited data

Results flagged for a closer look

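These results stood out because the change between ectoderm and hPSC differed between chromatin and cytoplasm by a test of the difference itself (edgeR's quasi-likelihood F test, adjusted over all genes), which called 3061 genes. The 10 largest by the naming rule follow. The more positive changes on chromatin were at TSPEAR-AS2 (6.44), PVRIG2P (3.98), NPIPA7 (3.93), TMSB15B (3.82) and FNTB (3.19). The more negative ones were at TATDN1 (-5.82), MT-ATP8 (-4.67), FAM171B (-4.63), PRR11 (-4.57) and TCAF1 (-4.46). Libraries at or near 0 counts underlie 5 of them, so that their fitted difference depends on the prior count and is no bound. TSPEAR-AS2 was at 3.67, 2.48 and 0.951 CPM in ectoderm chromatin, 47.3, 49.1 and 92.1 CPM in hPSC chromatin, and 0, 0 and 0 CPM in ectoderm and 16.7, 23.2 and 22.5 CPM in hPSC in cytoplasm. PVRIG2P, a pseudogene, was at 0, 0 and 0.218 CPM in ectoderm and 13.7, 4.87 and 7.78 CPM in hPSC in cytoplasm. Its call was lost in 5 of 12 fits that left out 1 library (without ectoderm chromatin 2 or 3, ectoderm cytoplasm 1 or 2, or hPSC cytoplasm 1, adjusted p 0.0537 to 0.0739), and without ectoderm cytoplasm library 3 its difference was 7.37. FAM171B was at 20.0, 25.8 and 16.1 CPM in ectoderm chromatin, 0.128, 0.294 and 0.0790 CPM in hPSC chromatin, and 28.5, 21.9 and 24.7 CPM in ectoderm and 0, 0 and 0 CPM in hPSC in cytoplasm, and its call was lost in 7 of 12 such fits (without ectoderm cytoplasm 1 or 3, hPSC chromatin 1 or 2, or any 1 hPSC cytoplasm library, adjusted p 0.0536 to 0.0826). TATDN1 was at 3.89, 6.23 and 3.65 CPM in ectoderm chromatin and 0.449, 0.735 and 0 CPM in hPSC chromatin, and at 22.5, 19.5 and 26.2 CPM in ectoderm and 0, 0.0737 and 0 CPM in hPSC in cytoplasm. MT-ATP8, which overlaps MT-ATP6 on the mitochondrial genome, was at 1.83, 1.34 and 14 CPM in ectoderm and 0.121, 0.664 and 0.792 CPM in hPSC in cytoplasm, and 1 ectoderm library carries most of that level. NPIPA7 belongs to a multigene family whose reads may be split, and it was at 12.7, 14.1 and 7.69 CPM in ectoderm chromatin and 1.28, 6.25 and 7.90 CPM in hPSC chromatin. PRR11, TCAF1, FNTB and TMSB15B are given with their library values in the results.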

How the results depend on the processing

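The ectoderm and hPSC chromatin comparison called 9187 genes, between 8100 and 10555 when 1 library was left out (10555 without hPSC library 3), 9258 with DESeq2, 9158 without TMM, 9272 with upper-quartile factors (which moved the median of all genes to -0.10), 8177 on TPM, 9300 without a filter, 9948 with the combined assembly, 6713 in the fit of all chromatin libraries and 6173 on shared transcripts, the last 2 with fewer genes tested, and 5756 with a 2-fold change added. For the difference between fractions (3061 genes) the range over left-out libraries was 2368 to 4525, with 1734 at 2-fold, 1756 on TPM and 1564 on shared transcripts. The contrast with endoderm ranged from 5516 to 6884 over left-out libraries, with 3835 at 2-fold and 4153 on shared transcripts, and that with mesoderm from 4333 to 5706, with 2825 at 2-fold. Opposite directions were found on TPM for FAM171B (0.29), MT-ATP8 (0.55), PVRIG2P (-0.93) and TSPEAR-AS2 (-1.23), on shared transcripts for TMSB15B (-4.46), all in the difference between fractions, and on the combined assembly for GUSBP17 (2.63). In those settings PVRIG2P, TSPEAR-AS2 and GUSBP17 passed the test, while FAM171B, MT-ATP8 and TMSB15B did not. The cause was not tested. Over the alternatives, values of the named genes in the main comparison kept direction and call in 679 cases and reversed in 1, and list counts stayed within 1.5-fold in 863 cases and moved further in 89; for the difference between fractions 178 cases kept direction and call, 12 lost the call and 5 reversed. With a replicate block, shared by all libraries of a number, the counts were 9310, 2831, 6119 and 4957 genes for the 4 comparisons in the order given. Deviations of same-numbered ectoderm and hPSC chromatin libraries correlated at 0.001, 0.279 and 0.344. The numbers were therefore not taken to pair libraries across cell types. Whether same-numbered chromatin and cytoplasm libraries of a cell type are paired was not checked. Ectoderm library 2 was high in counts without an Ensembl gene in both fractions (7.34% and 8.67%), hPSC library 2 in cytoplasm only (1.08% on chromatin and 9.36% in cytoplasm). Depth limits genes under a few CPM, where 1 library's counts can decide a fold.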

Other observations

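MIR302CHG averaged 792 ± 116 CPM (SD, n = 3) in hPSC chromatin, 365 ± 103 CPM in nucleoplasm and 308 ± 191 CPM in cytoplasm, and in ectoderm 37.2 ± 4.97, 30.9 ± 1.47 and 16.9 ± 8.74 CPM. MEG3 averaged 245 ± 11.6 CPM in ectoderm chromatin, 128 ± 9.02 CPM in nucleoplasm and 75.6 ± 6.56 CPM in cytoplasm, against 2.17 ± 0.355 CPM in hPSC chromatin. These levels were not tested between fractions. Among ribosomal protein genes RPL37A was the 1 that rose (1.05), while RPL39L, a paralog known from stem cells and testis, changed by -2.0 and RPS26 by -1.87. Of the replication histone genes H2BC21, one that also makes a polyadenylated mRNA, changed by 3.34 and H2BC5 by 2.46. The cyclin gene CCNE2, a partner of CDK2 at the start of replication, stood at 0.300, 0.320 and 0.158 CPM in ectoderm and 9.61, 10.1 and 6.56 CPM in hPSC (log2 change -5.03, SE 0.34).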
